A study of Mus musculus with 20 samples.

Results

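Type I interferon-stimulated genes are the genes that cells switch on when interferon alpha or beta binds its receptor. The set described here held 44 mouse genes, listed by symbol; the rule that made the list used no measured value. They were followed in bone marrow-derived macrophages through inhibition of DOT1L, stimulation with bacterial lipopolysaccharide (LPS) and activation of the liver X receptors. Each symbol was represented by its RefSeq transcript with the highest total count. All 44 symbols were in the count table, among 24342 symbols in all, and all 44 were among the 12013 genes with enough reads to test.

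Type I interferon acts through the receptor chains IFNAR1 and IFNAR2 and the kinases JAK1 and TYK2, which activate factors of the STAT family, STAT2 among them. STAT2 and IRF9 are part of the complex ISGF3, which binds the interferon-stimulated response element in the promoters of its targets. In macrophages LPS triggers this circuit through TLR4 and its adaptor TRIF (gene Ticam1), which leads to activation of IRF3 and to secretion of interferon beta (gene Ifnb1) that acts back on the cells. The products of the genes bind viral RNA, block translation, modify proteins with the ubiquitin-like ISG15, or carry the signal further.

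Macrophages were grown from the bone marrow of C57BL/6 mice in medium with L929 cell supernatant as the source of M-CSF. Throughout differentiation they received 1 µM SGC0946, an inhibitor of DOT1L (the methyltransferase of histone H3 lysine 79), or its solvent DMSO. Cells of each arm were left without stimulus (4 DMSO and 4 SGC0946 libraries), exposed to 10 ng/mL LPS for 3 h (3 and 3) or exposed to 2 µM of the liver X receptor agonist GW3965 for 17 h (3 and 3). No separate control for 3 h or 17 h without stimulus was analysed here. All cells came from a single wild-type strain, so DOT1L was inhibited by the compound only. Whole cultures were sequenced, so in these data fewer cells of a type and less RNA per cell cannot be told apart.

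Libraries numbered alike came from the same mouse. The representative transcripts held between 8174951 and 13331945 reads per library. Markers of macrophages were all present in every group, with a summed level of 12778 to 21194 CPM (read counts scaled to a common library size). Of the plasmacytoid dendritic cell markers, a cell type known for interferon production, Klk1 was at 0 in all libraries and Siglech had a mean of at most 0.059 CPM in any group. The summed level of those 7 markers was 8.04 to 9.37 CPM in unstimulated DMSO cells and 4.17 to 5.63 CPM in unstimulated SGC0946 cells. Most of that sum was Runx2, which is not particular to those cells. Its mean was 7.24 CPM without and 3.22 CPM with the inhibitor. Spib (0.115 and 0.0612 CPM) and Pacsin1 (0.0375 and 0 CPM) also had a lower mean with the inhibitor, while Siglech, Ccr9 and Cox6a2 did not. Apart from Runx2 and Cox6a2 (1.33 and 1.45 CPM), these markers rest on very few reads. The summed level of 9 neutrophil and granulocyte precursor markers was 30.9 to 41.5 CPM in unstimulated DMSO cells and 2.08 to 7.77 CPM in unstimulated SGC0946 cells, and all 5 testable markers of that list were lower with SGC0946 in each of the 3 conditions. The part of these marker differences in the SGC0946 comparisons below was not tested.

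The promoters of the genes are shown first because the response is known to act through an element in the promoters of its targets. RefSeq promoters on build GRCm38.p6, each 300 bases long with 250 bases before the transcription start, were matched for 34 of the 44 genes. The core of the interferon-stimulated response element was searched as GAAANNGAAA on both strands, so that TTTCNNTTTC is the same motif read from the other strand. It was found in 19 of the 34 genes (55.9%), against 1079 of all 27025 genes with a promoter in the same table (3.99%). The gamma-activated sequence, known from the response to type II interferon, was searched as TTCNNNGAA, which reads alike on both strands, and was found in 7 of 34 genes (20.6%) against 9.55% of all genes. The motifs overlapped in 2 promoter windows of the set. The stretches below are the gene's own strand, 5′ to 3′, and capitals mark the letters of GAAANNGAAA matches.
Ifit1, chr19:34640765-34640833, plus strand: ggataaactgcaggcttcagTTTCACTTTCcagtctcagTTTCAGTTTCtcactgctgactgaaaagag
Isg15, chr4:156200855-156200916, minus strand: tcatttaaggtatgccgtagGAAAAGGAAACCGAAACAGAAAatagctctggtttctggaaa
Oas1a, chr5:120907526-120907565, minus strand: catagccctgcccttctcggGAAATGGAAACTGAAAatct
Rsad2, chr12:26456543-26456592, minus strand: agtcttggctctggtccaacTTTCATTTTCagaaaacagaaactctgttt
Ifi205, chr1:174031860-174031909, minus strand: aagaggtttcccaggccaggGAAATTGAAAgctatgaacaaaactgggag

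Ifit1 held 2 separate matches, and Isg15 held 3 that run into each other. Rsad2 and Ifi205, the most abundant gene after LPS and the gene with the highest fold change after LPS, held 1 match each in the window before the start. Ifit3 and Ifit3b, neighbouring copies on chromosome 19, share the stretch below letter for letter, with 2 matches.
Ifit3, chr19:34583353-34583436, plus strand: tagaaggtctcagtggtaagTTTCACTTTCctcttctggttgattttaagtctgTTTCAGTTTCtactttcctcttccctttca

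No match in this window was found for Ifi44 and Tnfsf10, the genes that were higher with SGC0946, and the 100 bases before their RefSeq starts follow. The GENCODE annotation places the starts of both genes inside these stretches.
Ifi44, chr3:151749911-151750010, minus strand: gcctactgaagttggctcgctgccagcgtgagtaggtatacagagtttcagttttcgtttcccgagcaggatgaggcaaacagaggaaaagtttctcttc
Tnfsf10, chr3:27316977-27317076, plus strand: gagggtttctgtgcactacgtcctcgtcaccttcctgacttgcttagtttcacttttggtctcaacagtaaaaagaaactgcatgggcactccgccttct

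Presence of GAAANNGAAA did not go with a higher LPS response. The 19 genes with a match had a median log2 fold change of 3.11 in DMSO cells and the 15 matched genes without it a median of 4.08. This is a description of 1 short window per promoter, and a match is not a shown binding site.

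Levels of different genes were compared on the deposited RPKM values, which divide the reads of a transcript by its length and by the size of the library. In unstimulated DMSO cells the highest level was that of Ifitm3, a membrane protein that blocks virus entry, at 556 ± 94.1 RPKM (mean ± SD, n = 4). Lgals3bp, a secreted glycoprotein, followed at 261 ± 43.0 RPKM, and Bst2 (tetherin, which holds budding virions at the cell surface) at 161 ± 22.7 RPKM. The spreads of these 3 did not reach each other. From Slfn5 (67.2 ± 20.6 RPKM) downward, neighbours in the order lay within the spread of each other. The lowest were Ifi205 at 1.03 ± 0.550 RPKM and Tnfsf10 at 0.918 ± 0.400 RPKM.

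After LPS the order was different. Rsad2, the radical SAM enzyme viperin, came first with 5259 ± 86.5 RPKM (n = 3, DMSO cells). Its genomic neighbour Cmpk2, a mitochondrial nucleotide kinase, had 2480 ± 26.3 RPKM, Ifit2 2226 ± 66.1 RPKM and Ifit1 1667 ± 64.4 RPKM. Ifitm3, first before stimulation, was the fifth at 800 ± 2.99 RPKM. These first 5 differed beyond their SDs. The lowest level after LPS was that of Phf11a at 18.1 ± 1.12 RPKM.

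LPS raised every gene of the set. In DMSO cells 44 of 44 passed the test as higher (edgeR quasi-likelihood test; p-values were adjusted by Benjamini-Hochberg across the 12013 genes, and a gene was called under 0.05), against a background of 35.4% of all genes tested. The median log2 fold change was 3.52, from 1.08 to 9.06, and that of all genes was -0.07. In SGC0946 cells 44 of 44 were again higher, against 35.8% of all genes, with a median of 3.63. In each arm the LPS libraries lay above all unstimulated libraries for each of the 44 genes, against 36% of all genes in DMSO cells and 33.9% in SGC0946 cells. LPS libraries were scaled differently from the rest (normalisation factors 0.686 to 0.717 against 1.14 to 1.19). With library totals as the only scaling the median of all genes moved to -0.80 and that of the set to 2.79 in DMSO cells, and all 44 genes still passed.

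**Figure D1:**
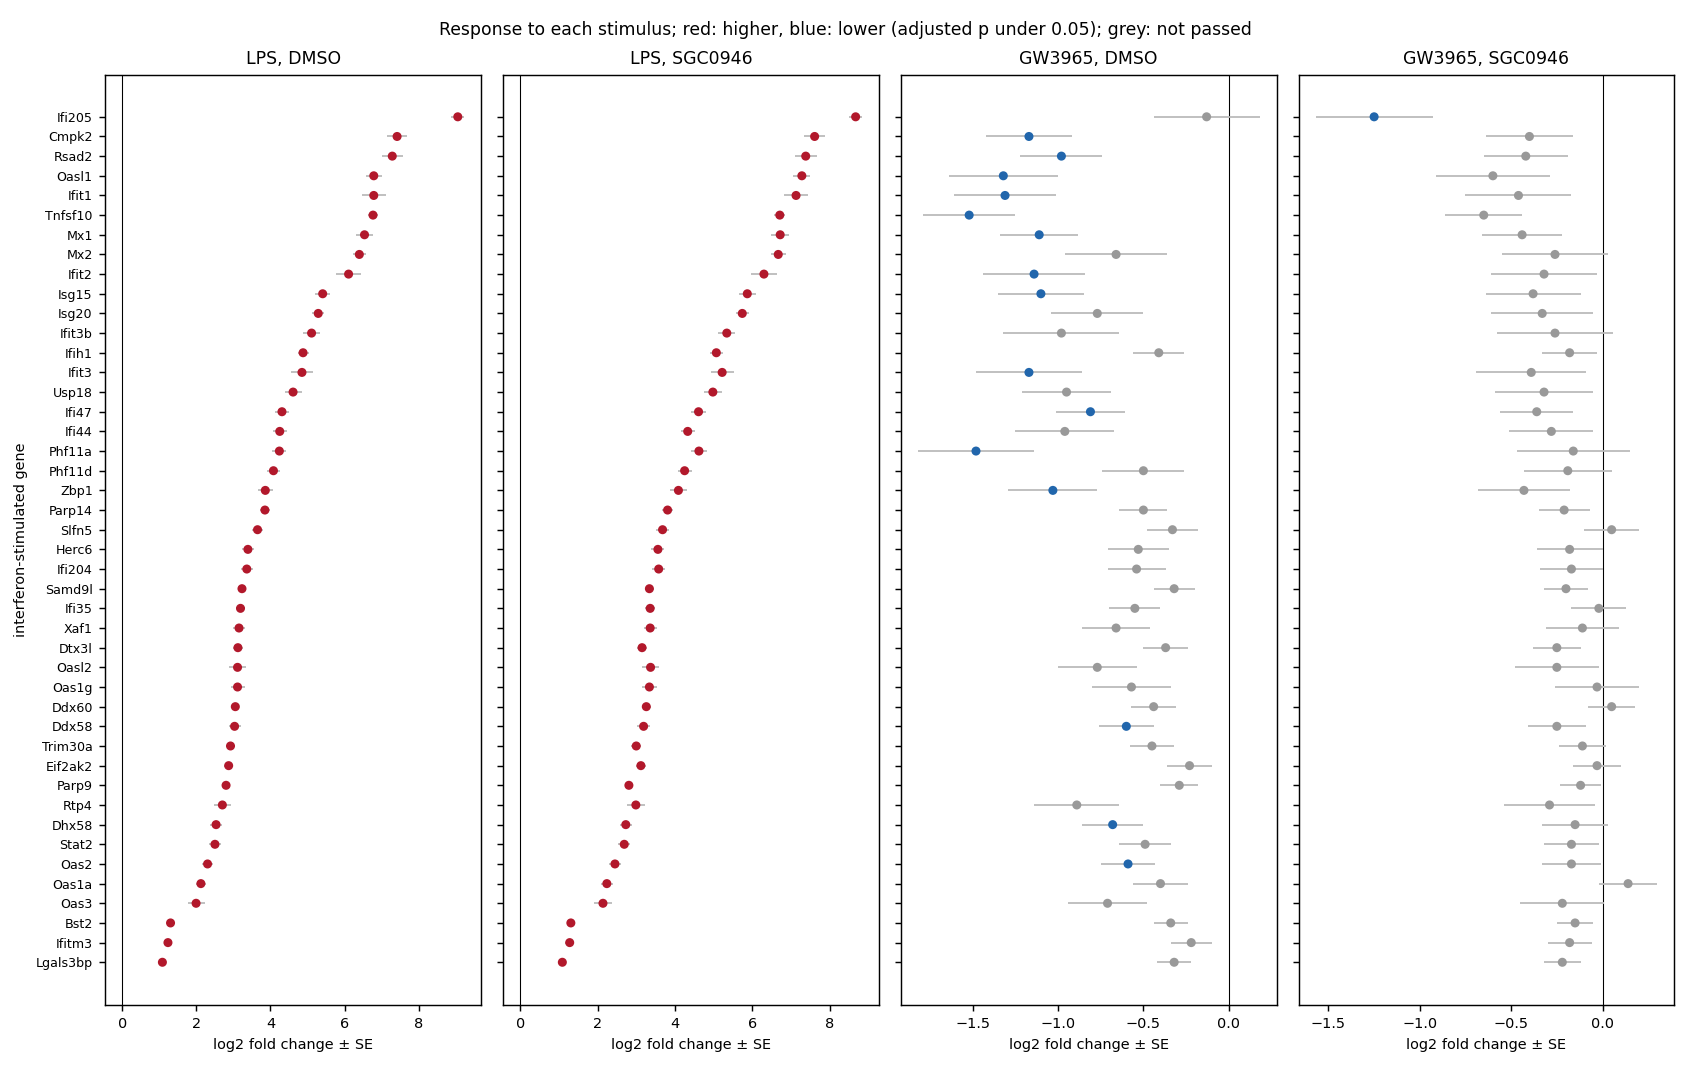
Log2 fold changes with standard errors of the 44 genes after LPS and after GW3965, each against unstimulated cells of the same arm (DMSO or SGC0946; 3 stimulated against 4 unstimulated libraries). The x axes of the LPS and GW3965 panels differ in scale; all 44 LPS values lie above 1, and all 44 GW3965 values in DMSO cells lie below 0.

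The IFIT genes, whose products bind viral RNA and restrain its translation, rose most as a family, with a median log2 fold change of 5.61 (4 of 4 higher). Ifit1 had 56.1, 120, 45.6 and 31.6 CPM in unstimulated DMSO cells and 6922, 7262 and 6931 CPM after LPS. Its log2 fold change of 6.79 ± 0.32 (SE) corresponds to a 111-fold higher level (adjusted p = 1.68e-14). The lowest in the family was Ifit3 with 4.85 ± 0.30. Ifit3 and Ifit3b are near-identical, so their reads may be split uncertainly between them.

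Members of the OAS family make the messenger that activates RNase L, or act on RNA sensing without it. All 6 rose, with a median of 2.70 and a wide range. Oasl1 went from 5.70, 12.3, 5.41 and 3.67 CPM to 743, 790 and 769 CPM, a log2 fold change of 6.79 ± 0.21. Oas3, the lowest, went from 168, 182, 136 and 90.8 CPM to 530, 548 and 640 CPM, a log2 fold change of 1.99 ± 0.23. Oas1a and Oas1g are close copies, and the split of reads between them is uncertain.

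Among the 8 sensors of RNA and other nucleic acids (median 3.20) Ifi205, of the IFI200 family of DNA-binding proteins, had the highest log2 fold change of the whole set, 9.06 ± 0.17. It rose from 1.59, 2.85, 0.955 and 1.12 CPM to 832, 908 and 952 CPM. Ifi204, a close relative that senses cytosolic DNA, started higher, at 147, 193, 133 and 92.3 CPM, and reached 1417, 1432 and 1501 CPM. Reads shared between these relatives make their split uncertain. Ifih1 (MDA5, a sensor of long viral RNA) rose from 74.5, 97.9, 69.6 and 54.0 CPM to 2092, 2227 and 2219 CPM. The lowest sensor was Dhx58 (LGP2), with a log2 fold change of 2.53 ± 0.16.

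ISG15 is conjugated to proteins, and USP18 removes it and also dampens signalling at IFNAR2. Isg15 rose from 16.9, 27.6, 17.7 and 11.6 CPM to 750, 776 and 846 CPM, a log2 fold change of 5.41 ± 0.21. Usp18 rose from 24.5, 46.7, 24.5 and 14 CPM to 652, 675 and 699 CPM. Herc6, the mouse ligase for ISG15, had the lowest value of these 3, 3.39 ± 0.17, and shares 26.6% of its exon bases with a neighbouring annotated gene.

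The 10 direct antiviral effectors had a median of 4.47, and the values ran from 1.23 ± 0.12 for Ifitm3 to 7.42 ± 0.28 for Cmpk2. Rsad2 rose from 180, 348, 160 and 126 CPM to 31143, 32050 and 32367 CPM. The transcripts kept for Mx1 and Mx2, of the dynamin-like GTPase family, are non-coding RefSeq records. The same holds for those kept for Oas1g and for the pathway gene Irf3. Mx2 rose from 5.20, 8.81, 3.10 and 3.30 CPM to 450, 438 and 435 CPM. The small rise of Ifitm3 went with a high starting level: 408, 375, 349 and 280 CPM became 817, 818 and 843 CPM. Slfn5 rose from 403, 548, 373 and 261 CPM to 4573, 4893 and 5453 CPM.

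In the remaining groups the ADP-ribosyltransferase Parp14 rose from 398, 476, 321 and 262 CPM to 5156, 5027 and 5601 CPM, and Parp9 had the lowest value of its group (log2 fold change 2.80 ± 0.11). Stat2, the ISGF3 subunit that the pathway itself induces, rose from 203, 272, 173 and 140 CPM to 1104, 1098 and 1153 CPM. It was the lowest of the signalling group (5.67-fold higher), and Phf11a was the highest (18.9-fold). Of the other induced genes the death receptor ligand TRAIL (gene Tnfsf10) had 6.77 ± 0.14 and Lgals3bp 1.08 ± 0.10, the lowest of the set.

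**Figure D2:**
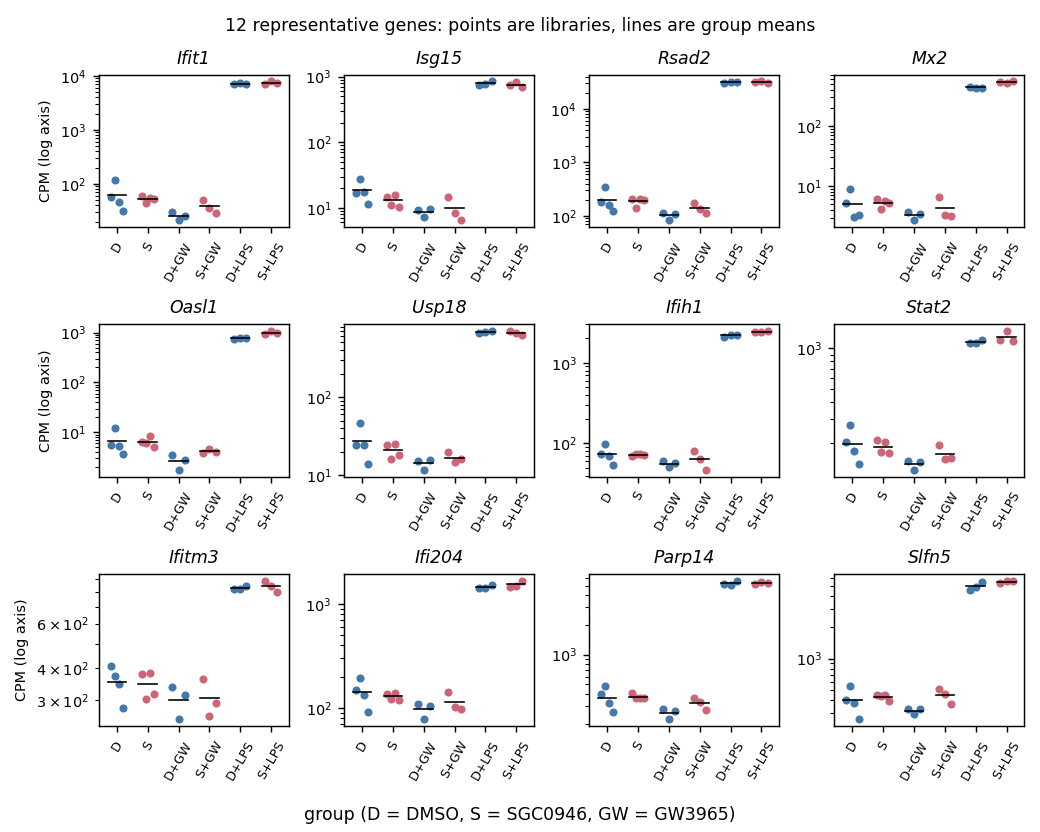
Levels of 12 representative genes in CPM on log axes whose ranges differ by gene, with a point for each of the 20 libraries and a line at each group mean. LPS libraries lie above all others for each of the 12 genes, and the unstimulated DMSO points spread more widely than the unstimulated SGC0946 points.

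Upstream of the set, interferon beta itself was read only after LPS in DMSO cells. Ifnb1 had 0 counts in all 4 unstimulated and all 3 GW3965 libraries of that arm, and 7.36, 7.66 and 9.27 CPM after LPS, which is at least 32.1-fold higher when each unstimulated library is given a floor of 3 counts. Of 30 testable genes of the pathway, a list that runs from TLR4 to the negative regulators, 24 rose and 4 fell after LPS in DMSO cells. Socs1, a feedback inhibitor of the kinases, rose by 7.46 ± 0.15 on the log2 scale, from 1.17, 0.994, 1.75 and 0.825 CPM to 203, 190 and 232 CPM. Irf7, the factor that amplifies interferon production, rose by 3.88 ± 0.23, Irf9 by 1.24 ± 0.09, Ifnar1 by 1.69 ± 0.06 and Ifnar2 by 0.76 ± 0.07. The rise of Ifnar2 did not pass with library totals as the only scaling (0.04, adjusted p = 0.609). Irf3 fell by 0.32 ± 0.08 and Tlr4 fell by 0.26 ± 0.06, and Ticam1 had a value of 0.09 ± 0.08 that did not pass.

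Without stimulus the set varied more between DMSO cultures than other genes did. The median SD of log2 CPM over the 4 unstimulated DMSO libraries was 0.47 for the 44 genes and 0.10 for all genes tested. DMSO replicate 2 was the highest of the 4 for 41 of 44 genes and DMSO replicate 4 the lowest for 41 of 44. Against the group mean, the median of the set was 0.11, 0.52, -0.09 and -0.55 in replicates 1 to 4. Replicate 4 is also the only unstimulated DMSO library whose title lacks the word "reanalyzed", and its part in this pattern was not tested. In the 4 SGC0946 libraries, from the same mice, the median SD was 0.17 against 0.13 for all genes. After LPS the spread was below that of other genes, 0.07 against 0.12 in DMSO cells and 0.07 against 0.15 in SGC0946 cells. After GW3965 it was above that of other genes in both arms, 0.22 against 0.10 in DMSO cells and 0.31 against 0.14 in SGC0946 cells.

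The same order of unstimulated DMSO libraries appeared in Irf7 and Irf9 of the pathway. Irf7 had 72.0, 97.9, 61.3 and 39.5 CPM, and Irf9 76.0, 83.4, 67.7 and 56.5 CPM in replicates 1 to 4. Irf3, at 33.3, 35.5, 32.7 and 33.3 CPM, and Ifnar1, at 148, 159, 160 and 154 CPM, did not show it. Irf8, at 202, 195, 205 and 196 CPM, and Irf5, at 115, 108, 113 and 106 CPM, hardly varied (SD of log2 CPM 0.04 and 0.05). Irf1 and Irf2 varied more (0.16 and 0.11), against a median of 0.10 for all genes tested. Irf5, Irf1 and Irf2 are named here only for their spread.

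**Figure D3:**
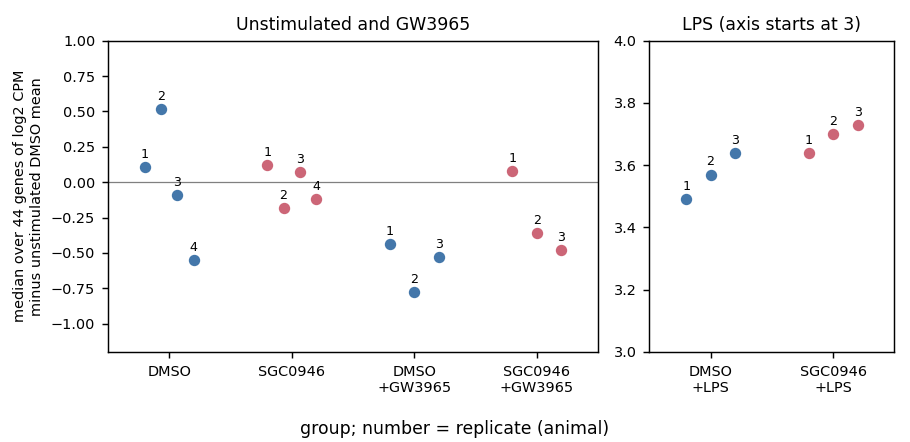
Median over the 44 genes of log2 CPM relative to the mean of the unstimulated DMSO libraries, with a point for each of the 20 libraries, numbered by mouse. The LPS panel has its own axis, which starts at 3; unstimulated DMSO libraries run from -0.55 to 0.52, and LPS libraries from 3.49 to 3.73.

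**Figure D4:**
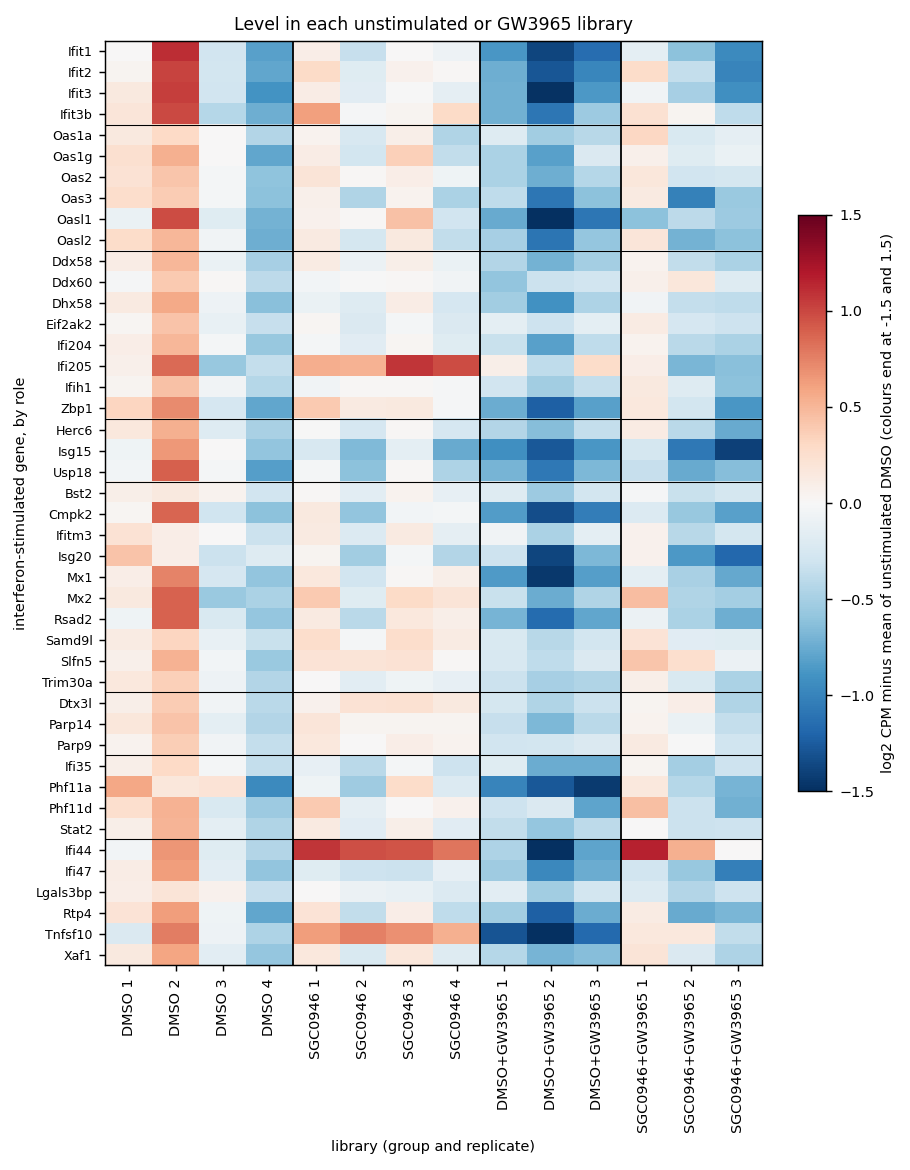
Log2 CPM of each of the 44 genes (rows) in each unstimulated or GW3965 library (columns), as colour. Values are relative to each gene's mean in unstimulated DMSO cells. LPS libraries are not shown. The column of DMSO replicate 2 is above its group mean for all 44 genes and that of DMSO replicate 4 below it for all 44.

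Inhibition of DOT1L left most of the set within the spread between libraries when no stimulus was given. In unstimulated cells 1 of 44 genes (2.27%) passed as higher with SGC0946 and 0 as lower, against 4.55% of all genes higher and 4.18% lower, so the share of the set was below the background. The median log2 fold change of the set was -0.10, with 13 values above 0 and 31 below. That sign depended on the DMSO libraries that stood apart: within mice, the median difference was 0.00, -0.67, 0.21 and 0.41 for replicates 1 to 4. The median over the set was 0.14 without DMSO replicate 2 and -0.25 without DMSO replicate 4. In this comparison DMSO replicate 4 is the only DMSO library without the word "reanalyzed" in its title, and no SGC0946 library carries it. That label and the inhibitor are thus separated by DMSO replicate 4 alone.

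The gene that passed was Ifi44, an interferon-induced cytoplasmic protein. It had 6.79, 11.1, 6.13 and 5.10 CPM in DMSO cells and 14.8, 13.9, 13.5 and 12.3 CPM in SGC0946 cells, with no overlap. Its log2 fold change was 0.88 ± 0.22 (adjusted p = 0.0139), and 0.74 with adjusted p = 0.0598 without DMSO replicate 4. Tnfsf10 had 3.61, 7.29, 3.98 and 3.00 CPM in DMSO cells and 6.60, 7.22, 6.86 and 6.20 CPM in SGC0946 cells, where only DMSO replicate 2 reached the SGC0946 range. Its value of 0.56 ± 0.18 did not pass (adjusted p = 0.0614), and passed at 0.57 with adjusted p = 0.0338 when the mouse was a block in the fit, which brought the count of genes called to 2.

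Representative genes overlapped between the arms. In SGC0946 cells Ifit1 had 60, 43.9, 55.8 and 52.7 CPM, Rsad2 206, 142, 211 and 201 CPM, and Stat2 210, 170, 203 and 169 CPM, all inside the range of the DMSO libraries given above. Isg15, at 14.8, 11, 16 and 10.4 CPM, had the lowest log2 fold change of the set, -0.52 ± 0.22, which did not pass (adjusted p = 0.147). Of the 30 pathway genes only Ifngr1, a chain of the receptor for type II interferon, passed: 148, 138, 146 and 140 CPM in DMSO cells against 157, 195, 166 and 198 CPM (0.32 ± 0.08, adjusted p = 0.0162). That call was lost without DMSO replicate 4 (adjusted p = 0.0512), SGC0946 replicate 2 (0.066) or SGC0946 replicate 4 (0.0744).

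After LPS the set reached similar levels in both arms, with 2 genes higher in SGC0946 cells. They were 4.55% of the set against 3.86% of all genes higher, a share near the background, and 0 were lower (3.26% of all genes). The median log2 fold change was 0.11, with 33 values above 0 and 11 below. For 15 of the 44 genes the SGC0946 libraries lay above all DMSO libraries, against 1431 of all 12013 genes (11.9%). In the plasmacytoid dendritic cell list the summed level was 6.28 to 7.88 CPM in DMSO and 5.77 to 8.02 CPM in SGC0946 cells, and in the neutrophil list 55.1 to 65.4 CPM and 15.4 to 20.8 CPM.

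Ifi44 had 123, 154 and 146 CPM in DMSO cells and 252, 276 and 291 CPM in SGC0946 cells after LPS, a log2 fold change of 0.95 ± 0.17 (1.93-fold, adjusted p = 0.00109). Tnfsf10 had 471, 504 and 518 CPM against 757, 680 and 673 CPM, a log2 fold change of 0.50 ± 0.11 (1.41-fold, adjusted p = 0.00863). Neither gene's libraries overlapped, and both calls held with any of the 6 LPS libraries left out. Ifi205, with 832, 908 and 952 CPM against 1035, 1147 and 1181 CPM, had a value of 0.32 ± 0.12 (adjusted p = 0.112), and adjusted p = 0.0422 with the mouse as a block.

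Most of the representative genes differed little between the arms after LPS. Rsad2 had 31815, 32610 and 30311 CPM in SGC0946 cells (log2 fold change -0.01 ± 0.24), Ifit1 7171, 7843 and 7331 CPM (0.08 ± 0.28) and Parp14 5150, 5397 and 5263 CPM (0.00 ± 0.14). Isg15 had 755, 838 and 686 CPM (-0.06 ± 0.19). Oasl1, at 954, 1071 and 981 CPM, and Mx2, at 539, 529 and 553 CPM, lay above all 3 DMSO libraries, with values of 0.39 ± 0.17 and 0.29 ± 0.15 that did not pass (adjusted p = 0.203 and 0.255). The SEs and p-values above come from 1 spread per gene shared by all 6 groups. That spread includes unstimulated DMSO cells, where the median SD of log2 CPM was 0.47, against 0.07 after LPS in both arms. A value that did not pass after LPS is thus not a shown likeness of the arms. A fit on the 2 LPS groups alone called 7 genes of the set, Oasl1 and Mx2 among them. Its spread was estimated from those 6 libraries only.

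Interferon beta did not differ detectably between the arms after LPS, at 6.83, 6.37 and 8.54 CPM in SGC0946 cells (-0.17 ± 0.24, adjusted p = 0.748). Upstream, Ticam1, the adaptor TRIF, was lower in SGC0946 cells, with 39.7, 37.6 and 40.4 CPM in DMSO and 32.6, 26.9 and 27.7 CPM in SGC0946 cells (-0.43 ± 0.09, adjusted p = 0.00518). Tlr4, the LPS receptor, was higher, with 226, 203 and 216 CPM against 253, 271 and 241 CPM (0.25 ± 0.07, adjusted p = 0.032). Irf8, a myeloid interferon regulatory factor, was higher, with 1208, 1201 and 1244 CPM against 1443, 1360 and 1442 CPM (0.22 ± 0.06, adjusted p = 0.0428). The Tlr4 call was lost without DMSO+LPS replicate 2 (adjusted p = 0.167) or 3 (0.0715) or SGC0946+LPS replicate 1 (0.0609) or 2 (0.13). The Irf8 call was lost without any of the DMSO+LPS replicates (0.117, 0.146 and 0.0726) or without SGC0946+LPS replicate 1 (0.105) or 3 (0.121). Irf9 (0.10 ± 0.10), Irf7 (-0.04 ± 0.22) and Socs1 (0.00 ± 0.10) did not pass.

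The LPS responses of the arms were then compared directly, as a difference of the fold changes. No gene of the set passed in edgeR, which called 0.00832% of all genes, and 0 reached an unadjusted p under 0.05. DESeq2 also called 0 of the set. Of the pathway genes Ticam1 did not pass in edgeR (-0.46 ± 0.11, adjusted p = 0.175) and passed in DESeq2 (-0.47, adjusted p = 0.0478). The median difference, SGC0946 minus DMSO, was 0.19, with 41 values above 0. These values contain the unstimulated DMSO libraries that spread widely.

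GW3965 lowered part of the set in DMSO cells. After 17 h 15 of 44 genes passed as lower (34.1% of the set) and 0 as higher, against 1.2% of all genes lower and 1.35% higher. The median log2 fold change was -0.63 and all 44 values were below 0, from -1.52 to -0.13. The groups did not overlap, with GW3965 lower, for 9 of the 44 genes, against 1148 of all 12013 genes (9.56%). With the mouse as a block 33 genes of the set were called lower. The 1.2% of all genes called lower belongs to the fit without the block.

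The 15 genes came from 7 of the 8 role groups. Ifit1 had 30.4, 21.4 and 25.2 CPM after GW3965, all below its 4 unstimulated libraries (log2 fold change -1.31 ± 0.30, adjusted p = 0.0194), and Ifit3 and Ifit2 fell by 1.17 and 1.14. Oasl1 had 3.55, 1.79 and 2.79 CPM (-1.32 ± 0.32, adjusted p = 0.0281), and Oas2 fell by 0.59. Of the sensors Zbp1, a sensor of Z-form nucleic acid, fell by 1.03, Dhx58 by 0.68 and Ddx58 (RIG-I) by 0.60.

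Isg15 had 9.17, 7.18 and 9.54 CPM, below all unstimulated DMSO libraries (-1.10 ± 0.25, adjusted p = 0.0194). Among effectors Cmpk2 fell by 1.17, Mx1 by 1.11 and Rsad2 by 0.98, the last to 116, 84.2 and 110 CPM. Phf11a fell by 1.48, and Ifi47, an interferon-inducible GTPase, by 0.81. The lowest value was that of Tnfsf10, with 1.61, 1.37 and 1.77 CPM (-1.52 ± 0.27, adjusted p = 0.00218). The smallest values of the 8 role groups, none of which passed, were those of Ifit3b (-0.98 ± 0.34), Oas1a (-0.40 ± 0.16), Ifi205 (-0.13 ± 0.31), Herc6 (-0.53 ± 0.18), Ifitm3 (-0.22 ± 0.12), Parp9 (-0.29 ± 0.11), Stat2 (-0.49 ± 0.15) and Lgals3bp (-0.32 ± 0.10). No gene of the PARP and DTX3L group passed.

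How many genes were called depended on single libraries. The count was 7, 4, 11 and 38 without DMSO replicate 1, 2, 3 or 4, and 8, 1 and 2 without DMSO+GW3965 replicate 1, 2 or 3. Tnfsf10 passed in all 7 of these fits, Mx1 in 6, Ifit1 and Cmpk2 in 5 each, and Oasl1 in 4. Isg15, Rsad2 and Ifi47 passed in 3 of the 7, Ifit2, Ifit3, Zbp1 and Phf11a in 2, and Oas2, Ddx58 and Dhx58 in 1. Within mice the median difference of the set was -0.59, -1.32 and -0.40 for replicates 1 to 3.

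In the pathway Irf8 (0.24 ± 0.06) and Ifngr1 (0.40 ± 0.09) rose with GW3965 in DMSO cells. Irf7 (-0.69 ± 0.23), Irf9 (-0.27 ± 0.10) and Socs1 (-1.16 ± 0.40) did not pass. With the mouse as a block Irf7 (-0.84, adjusted p = 0.0107) and Irf9 (-0.32, 0.0496) passed as lower. Neither fit called Irf3, Tlr4, Ticam1, Ifnar1, Ifnar2 or Socs1, and the values of the first 5 lay between -0.09 and 0.14 without the block. DESeq2 called Socs1 as lower (-1.18, adjusted p = 0.0478), and edgeR without the count filter called Irf7 as lower (-0.7, adjusted p = 0.0353). Irf8 was called in none of the 7 fits without 1 library, with adjusted p of 0.0561 to 0.16, and Ifngr1 was lost without DMSO replicate 2 (0.0578) or DMSO+GW3965 replicate 1 (0.0598), 2 (0.0539) or 3 (0.0771).

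In SGC0946 cells GW3965 called 1 gene of the set, Ifi205, as lower (2.27% of the set against 1.11% of all genes). It had 2.26, 2.23, 3.34 and 3.13 CPM without stimulus and 1.63, 0.862 and 0.906 CPM after GW3965 (-1.25 ± 0.32, adjusted p = 0.0383). The call was lost in 4 of 7 fits without 1 library, those without SGC0946 replicate 3 (adjusted p = 0.0722) or 4 (0.117) or SGC0946+GW3965 replicate 2 (0.1) or 3 (0.144). With the mouse as a block 2 genes were called, Ifi205 and Tnfsf10 (-0.75, adjusted p = 0.0459). The median of the set was -0.22, with 41 values below 0. The GW3965 responses of the arms, compared directly, differed for 0 genes of the set in edgeR, against 0% of all genes. DESeq2 also called 0 of the set. In edgeR 9 genes of the set had an unadjusted p under 0.05, a share that was not counted over all genes. The median difference was 0.49, with 43 values above 0, and 0.23 without DMSO replicate 2. A call in DMSO cells and none in SGC0946 cells is therefore not a shown difference between the arms. Of the 30 pathway genes Irf8 passed as higher in SGC0946 cells after GW3965 (0.24 ± 0.06, adjusted p = 0.0411) and Ikbke, a kinase upstream of IRF3 named here because it passed, as lower (-0.29 ± 0.06, adjusted p = 0.00943). The Irf8 call was lost without SGC0946 replicate 1 (adjusted p = 0.0709), 2 (0.0665) or 3 (0.101) or SGC0946+GW3965 replicate 1 (0.101) or 2 (0.134), and the Ikbke call without SGC0946+GW3965 replicate 1 (0.101). Ifngr1 passed only with the block (0.34, adjusted p = 0.0203).

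Under GW3965 the arms were also compared with each other, and 2 genes were higher in SGC0946 cells (4.55% of the set, against 2.24% of all genes higher) and 0 lower (1.4%). Ifi44 had 5.02, 2.14 and 3.97 CPM in DMSO cells and 15.8, 10.2 and 7.05 CPM in SGC0946 cells (1.55 ± 0.30, 2.93-fold, adjusted p = 0.00424). Tnfsf10 had 1.61, 1.37 and 1.77 CPM against 4.71, 4.74 and 3.22 CPM (1.42 ± 0.29, 2.68-fold, adjusted p = 0.00701). The groups did not overlap for either gene, and both calls held with any of the 6 libraries left out. With the mouse as a block Ddx60 (0.43, adjusted p = 0.0265) and Slfn5 (0.49, adjusted p = 0.0284) were called as well, which makes 4.

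The rest of the set lay mostly above 0 without passing. The median was 0.36, with 42 values above 0. For 14 of the 44 genes the SGC0946 libraries lay above all DMSO libraries, against 1183 of all 12013 genes (9.85%). Slfn5 was among these, with 324, 294 and 328 CPM in DMSO cells and 511, 456 and 363 CPM in SGC0946 cells. Ifit1 had 50.3, 36.3 and 28.7 CPM in SGC0946 cells, and replicate 3 overlapped the DMSO range. SGC0946+GW3965 replicate 1 was the highest of its group for 40 of 44 genes, and without it the median of the set was 0.13. The 3 DMSO+GW3965 libraries carry the word "reanalyzed" in their titles and the 3 SGC0946+GW3965 libraries do not, so in this comparison that label and the inhibitor cannot be told apart. In the same libraries the plasmacytoid dendritic cell list summed to 7.86 to 10 CPM in DMSO and 4.14 to 4.88 CPM in SGC0946 cells and the neutrophil list to 27.6 to 40.9 CPM in DMSO and 2.65 to 5.09 CPM in SGC0946 cells, and none of the 30 pathway genes passed.

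**Figure D5:**
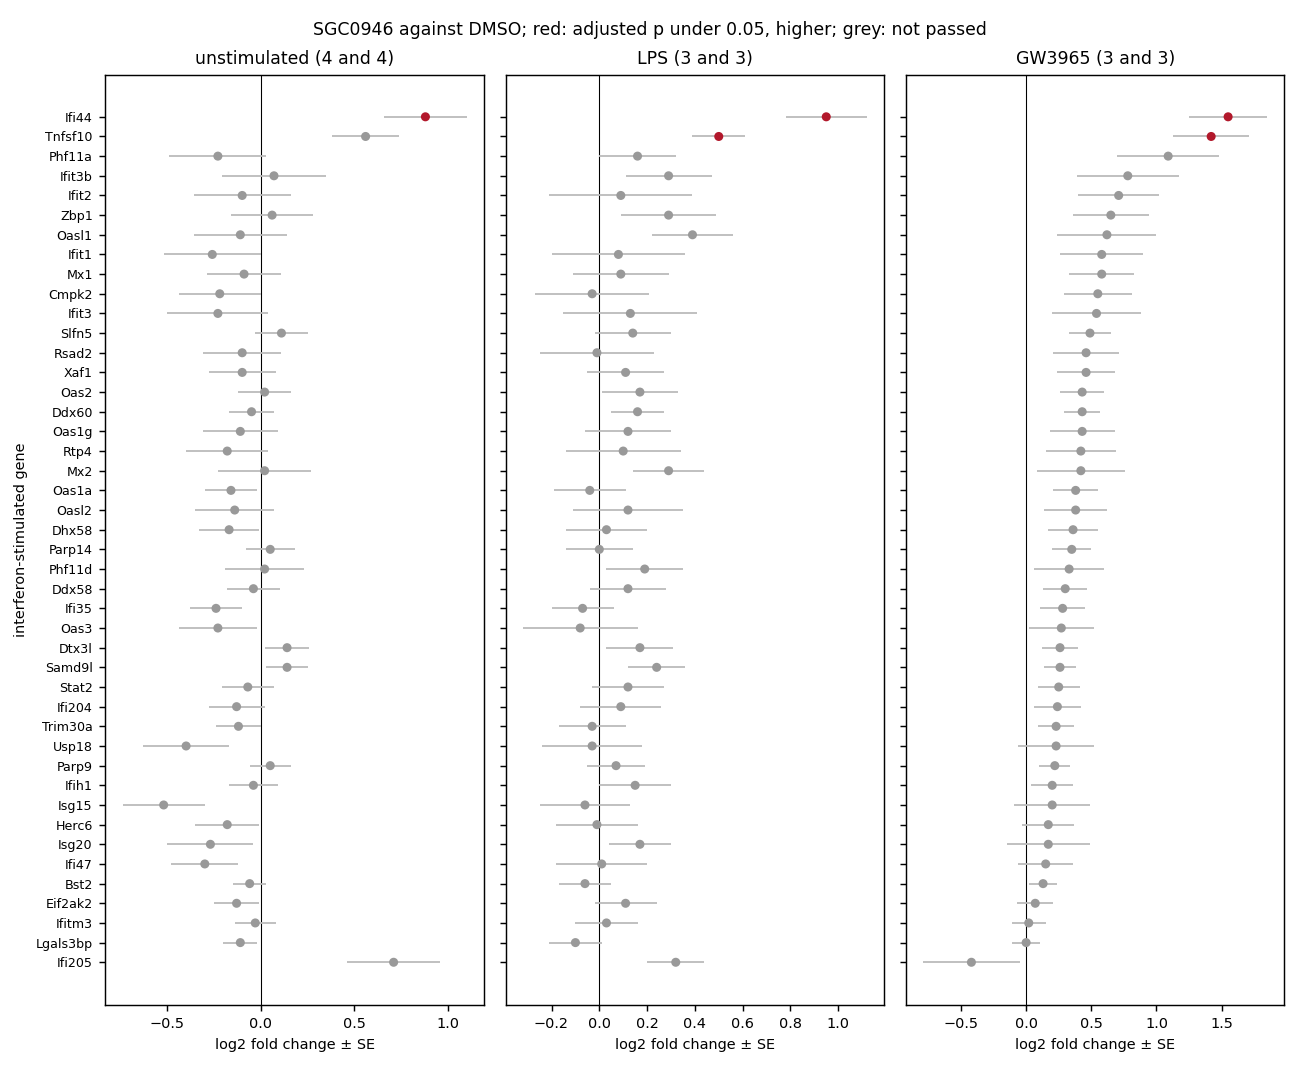
Log2 fold changes of SGC0946 against DMSO with standard errors for the 44 genes, unstimulated (4 and 4 libraries), after LPS (3 and 3) and after GW3965 (3 and 3), in panels whose x axes differ in scale. Red points passed as higher; Ifi44 did so in each of the 3 conditions and Tnfsf10 after LPS and after GW3965.

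Each of the 3 conditions had its own DMSO libraries, but mice were shared between conditions and 1 fit was used, so the values are not independent. The log2 fold change with SGC0946 was 0.88, 0.95 and 1.55 for Ifi44 and 0.56, 0.50 and 1.42 for Tnfsf10 (unstimulated, LPS, GW3965). Their responses to LPS did not differ detectably between the arms, with a difference of 0.07 ± 0.28 for Ifi44 and -0.06 ± 0.21 for Tnfsf10. Ifi44 was 19.1-fold higher after LPS in DMSO cells and 20.0-fold higher in SGC0946 cells, and Tnfsf10 109-fold and 105-fold. Ifi205 had 0.71 ± 0.25 (adjusted p = 0.0909) unstimulated, 0.32 ± 0.12 after LPS and -0.42 ± 0.37 under GW3965.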

How the data were processed

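RNA of 20 macrophage cultures was sequenced single-end from KAPA mRNA HyperPrep libraries, per the labels' protocols. The submitters' processing notes name the aligner STAR 2.5.2b, SAMtools 1.3.1 and the build mm10. What counted the reads, on which annotation and with which strand setting is not given in the sources used here, so reads of overlapping or antisense genes may be shared. The authors deposited raw read counts per RefSeq transcript and RPKM values of the same transcripts. The deposited sample sheet names the mouse of each library.

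The table held 35745 transcripts, of which 35440 had a symbol in the RefSeq table; the 305 others held 1.17% of the counts and were left out. The transcript with the highest total was kept for each symbol, which kept 57.3% of the counts. Counts were tested with edgeR 4.0.16 (TMM scaling, a minimum count of 10 in filterByExpr, 1 mean per group over all 20 libraries, quasi-likelihood F test, Benjamini-Hochberg adjustment, threshold 0.05). Standard errors were derived from F (the log2 fold change over its square root). CPM values are TMM-scaled, and SDs of log2 CPM use a prior count of 2. On counts simulated for the unstimulated SGC0946 comparison (11777 genes) the fit recovered 87 of 99 genes changed by 1 on the log2 scale and 66 of 98 changed by 0.5, with 7 false calls. The simulation used the spread of all genes and no shift shared by the genes of a library. Its rates therefore do not carry over to the set, whose median SD in unstimulated DMSO cells was 0.47 against 0.10 for all genes. Replicate libraries differed by more than counting noise, with a chi-square per gene of 3.09 or more, and none were merged.

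The sample sheet's mouse number equalled the replicate number in all 20 libraries, so equal numbers pair samples of the same mouse. Over all genes the deviations of same-mouse libraries from their group means had a median correlation of 0.20 (46 pairs, 39 of them above 0.1), against -0.12 for 120 pairs from different mice. The fit with the mouse as a block (replicate block) was an alternative.

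The genes, the pathway and marker lists and the tests were chosen with earlier results of these data known. Genes named with values are 12 representatives, every gene of the set called with SGC0946, the genes with the largest and smallest response to each stimulus in each role group, and the pathway genes called with SGC0946 or fixed by name; a pathway gene of the last kind is not reported here. Alternatives were other scalings (RLE, library totals), no count filter, the block, summed transcripts, a term for the word "reanalyzed", only the compared groups, DESeq2 1.42.0 and leaving out each library in turn. Genomic overlap came from a GENCODE annotation and promoters from RefSeq on GRCm38.p6.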

Additional observations from a re-analysis of the deposited data

Results flagged for a closer look

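Of 24 named genes checked in the 2 groups of 4 unstimulated libraries, 5 values in the group of 4 unstimulated SGC0946 libraries lay far from the other 3 of their group, by the gap to the nearest library divided by the range on the log2 scale. Chance flags about 1 in 20 groups. Parp14 was highest in replicate 1 (405 CPM). Rsad2 was lowest in replicate 2 (142 CPM). Slfn5 was lowest in replicate 4 (387 CPM). Ifnb1 was highest in replicate 2 (0.149 CPM), from 2 reads against 0 in the other 3, so that its gap equals the range; it was the only unstimulated library with any Ifnb1 read. Irf3 was highest in replicate 1 (37.8 CPM). The 5 values came from 3 different libraries.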

How the results depend on the processing

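All 44 genes stayed higher after LPS in both arms under every alternative, and no gene of the set passed in either difference of responses under any. Other counts moved, and the cause was not tested. Counts under an alternative, here and above, are of the set alone. The share of all genes called in the same fit is not set beside them. They therefore do not show whether the set or all genes moved. Without the count filter the genes called numbered 2 for SGC0946 unstimulated (1 as reported), 4 under GW3965 (2), 28 for GW3965 in DMSO cells (15) and 2 for GW3965 in SGC0946 cells (1). With the term for the word "reanalyzed" they were 3, 10 and 38 for the first 3 of these, and the median of the set for SGC0946 unstimulated turned from -0.10 to 0.55. DMSO replicate 4 alone separates that word from the groups, so this fit rests on that library: leaving it out also gave 38 for GW3965 in DMSO cells. In the fit on the compared groups only the genes called numbered 7 for SGC0946 after LPS (2) and 0 for GW3965 in SGC0946 cells. DESeq2 gave 3 for SGC0946 unstimulated, 26 for GW3965 in DMSO cells and 2 for it in SGC0946 cells. Leaving out each library in turn gave 0 to 3 for SGC0946 unstimulated, 1 to 38 for GW3965 in DMSO cells and 0 to 1 for it in SGC0946 cells. Without both DMSO replicates 2 and 4, an alternative chosen after seeing the data, SGC0946 unstimulated called 3 and GW3965 in DMSO cells 16.

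With the replicate block the counts were 2 for SGC0946 unstimulated, 3 for it after LPS, 4 for it under GW3965, 33 for GW3965 in DMSO cells and 2 for it in SGC0946 cells. Of the pathway genes reported here it added Traf3 (-0.22) for SGC0946 unstimulated, Sting1 (0.24) for it after LPS, Irf7 and Irf9 for GW3965 in DMSO cells, and Ticam2 (-0.35) and Ifngr1 for GW3965 in SGC0946 cells. The pairing by mouse changed no other call of these genes or of the set.

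With library totals as the only scaling the fold changes after LPS turned to -0.64 for Ticam1, -0.36 for Ticam2, -0.68 for Ifngr1 and -0.18 for Pias1 in DMSO cells, and to -0.48 for Ticam2 and -0.30 for Pias1 in SGC0946 cells, under a scaling that moves the median of all genes after LPS from -0.07 to -0.80 in DMSO and -0.81 in SGC0946 cells. Under the same scaling the rise of Ifnar2 after LPS did not pass, at 0.04 (adjusted p = 0.609) in DMSO and 0.11 (0.115) in SGC0946 cells. Genes at a few CPM, such as Tnfsf10 and Ifi205 without LPS, rest on few reads.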
